A study of Homo sapiens with 18 samples.

Results

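The genotype difference described here is the one between 9 MMP14-KO and 9 Wildtype libraries of MDA-MB-231 spheroids, taken over all 18 libraries of the series with the sampling condition as a covariate. MDA-MB-231 is a long-established cell line from a breast cancer that lacks hormone receptors and HER2 amplification. Both genotypes were sampled in the same 3 conditions with 3 libraries each: spheroids of 2000 cells after 5 days in hanging droplets, and spheroids that then spent 24 h or 48 h embedded in a collagen hydrogel. Spheroids in collagen were recovered with collagenase at 2 mg/ml and spheroids in droplets were not digested, in both genotypes alike. A gene was counted as a constant genotype difference when it passed the test over all conditions, differed at least 2-fold, had 1 sign in all 3 conditions and had within-condition differences that lay within a 1.5-fold range of each other. Of 17030 genes tested, 144 met this rule (0.846%), 122 of them higher (0.716%) and 22 lower (0.129%) in MMP14-KO spheroids. The labels do not say how the knockout was made, whether it is 1 clone or a pool, what the Wildtype cells went through, or whether the replicates were separate cultures. The p-values therefore measure the spread between these libraries, which may be technical, and a difference between the 2 cell stocks that arose apart from the MMP14 lesion cannot be told apart from one that followed it.

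MMP14, also called MT1-MMP, is a metalloproteinase held in the plasma membrane. It cuts collagen fibrils at the cell surface and activates the secreted gelatinase proMMP2 together with TIMP2. In carcinoma cells it is best known as the protease that lets cells pass through dense collagen. In bulk RNA such as this, fewer cells of a type and less RNA per cell cannot be told apart. The comparison over all conditions asks which transcripts differ between the genotypes whether or not the cells are in contact with collagen.

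Total counts ran from 19819401 to 33352163 per library, and the tested genes held at least 99.9% of each. Of the 12 markers of MDA-MB-231 and basal mesenchymal cells, 10 were tested, 3 higher and 3 lower in MMP14-KO libraries. VIM was at 2276 to 3867 CPM in MMP14-KO and 1936 to 3370 CPM in Wildtype libraries, while KRT5 and KRT14 stayed under 1 CPM. The hormone receptor genes ESR1 and PGR did not reach 1 CPM in any library. They belong to a list of 15 luminal breast epithelium markers, of which 13 were tested, 4 higher and 5 lower in MMP14-KO libraries. Among these, KRT8 was at 446 to 531 CPM in MMP14-KO and 464 to 532 CPM in Wildtype libraries. KRT19 was at 266 to 470 CPM in MMP14-KO and 344 to 491 CPM in Wildtype libraries. Of the leukocyte genes CD3E, MS4A1 and GZMB had 0 reads. Of 14 leukocyte markers 6 were tested, 3 were higher and none lower, with a median log2 fold change of 0.36. These marker counts stand beside 19.2% higher and 21.0% lower of all tested genes. The summed level of the 6 leukocyte markers was 104 to 155 CPM in MMP14-KO and 109 to 155 CPM in Wildtype libraries. Most of it was CD68, at 87.9 to 134 CPM in MMP14-KO and 94.3 to 119 CPM in Wildtype libraries. CPM are read counts scaled to 1e+06 reads per library, after TMM scaling except for the marker values. The share of counts from long noncoding genes was higher in MMP14-KO libraries by 0.121 percentage points on average (exact permutation test within conditions, two-sided p = 0.0015, smallest possible p 0.00025). In droplets it overlapped, at 0.928% to 0.954% in MMP14-KO and 0.869% to 0.950% in Wildtype libraries. It was 1.20% to 1.24% and 1.03% to 1.07% at 24 h, and 1.13% to 1.22% and 1.01% to 1.04% at 48 h, in the same order. The share from mitochondrially encoded genes differed by -0.362 percentage points (two-sided exact permutation p = 0.116), with 0.971% to 1.74% in MMP14-KO and 2.10% to 2.65% in Wildtype droplets. At 24 h it was 2.68% to 2.94% in MMP14-KO and 2.34% to 2.69% in Wildtype libraries. At 48 h it was 2.88% to 3.68% in MMP14-KO and 3.07% to 4.18% in Wildtype libraries. Neither share differed alike in all 3 conditions. The part of these shares in the results below was not tested.

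MMP14 itself checked the labels. In droplets the MMP14-KO libraries held 149 to 159 CPM of its transcript and the Wildtype libraries 1928 to 2249.7 CPM. After 24 h in collagen the MMP14-KO libraries held 143 to 166 CPM and the Wildtype libraries 1713 to 1976 CPM. After 48 h these were 138 to 163 CPM in MMP14-KO and 1284 to 1550.1 CPM in Wildtype libraries. The 9 MMP14-KO libraries lay far below the 9 Wildtype libraries and kept 8.58% of the Wildtype mean, with a log2 fold change of -3.53 (SE 0.07, adjusted p = 3.24e-18). Every adjusted p here comes from the quasi-likelihood test of edgeR over all tested genes with Benjamini-Hochberg adjustment. Within conditions the log2 fold changes were -3.73 in droplets, -3.57 at 24 h and -3.29 at 48 h, and the test of a change with condition gave an adjusted p of 0.0537. The gene lies on chromosome 14 (GRCh38, 22836557 to 22849027, plus strand).

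**Figure D1:**
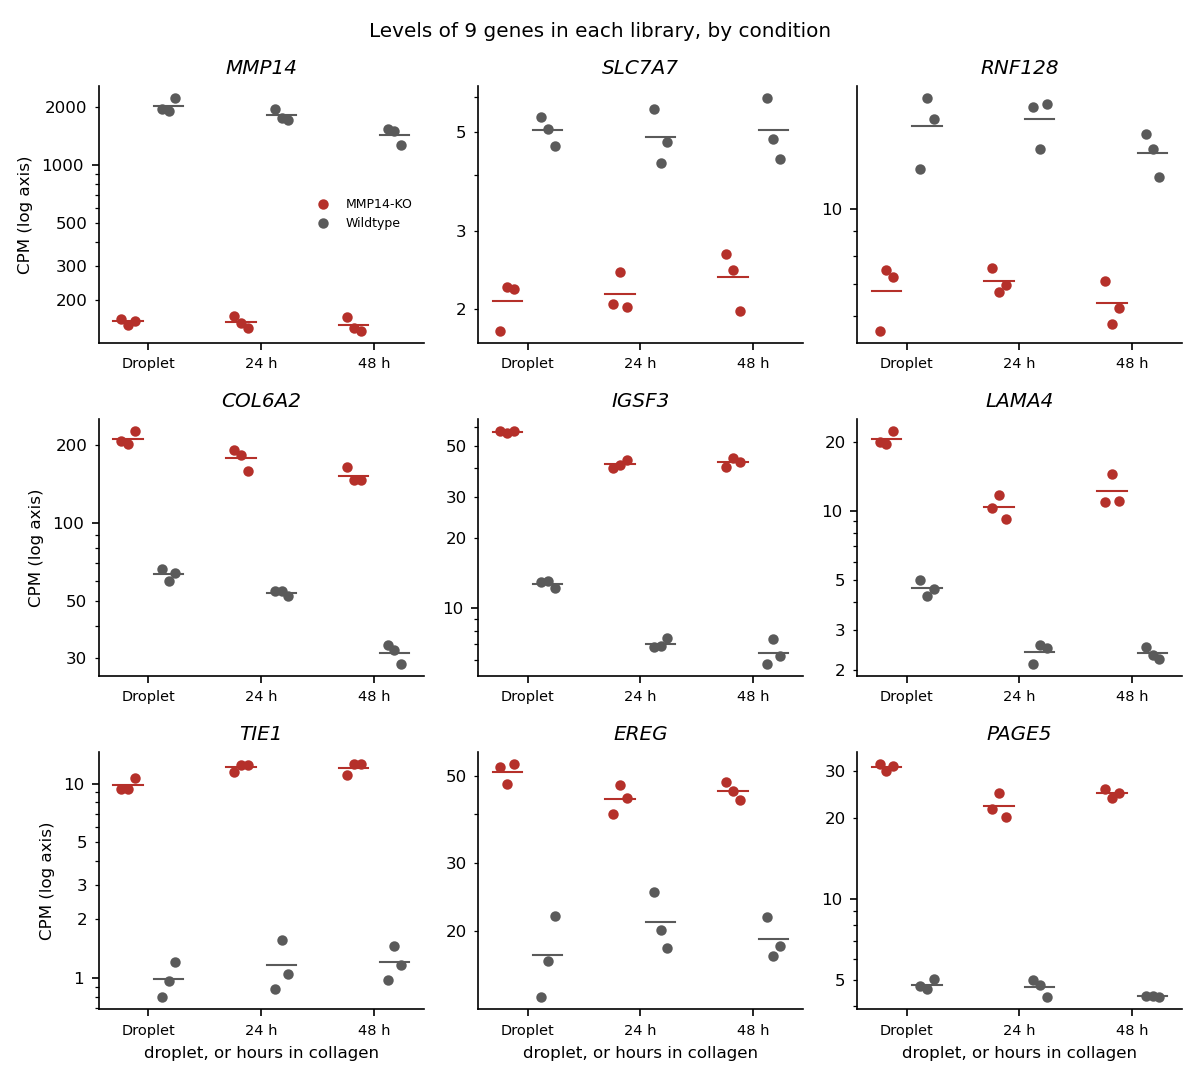
Level of 9 genes in CPM (log axis) in each library, with MMP14-KO libraries (red, left) beside Wildtype libraries (grey, right) in each condition; points are single libraries and bars are means of 3. In each panel the 9 MMP14-KO points and the 9 Wildtype points do not overlap, also where the level of both genotypes changes with condition, as for IGSF3 and LAMA4.

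SLC7A7, an amino acid transporter subunit gene that is an upstream neighbour of MMP14, was the other constant fall at this locus. It lies on the minus strand of chromosome 14 at 22773222 to 22829820. MMP14-KO libraries held 1.78 to 2.66 CPM with a median of 2.22 CPM, and Wildtype libraries held 4.26 to 5.99 CPM with a median of 4.84 CPM. The genotypes did not overlap, and the log2 fold changes were -1.27, -1.17 and -1.09 in droplets, at 24 h and at 48 h (average -1.18, SE 0.09, adjusted p = 2.99e-09). MRPL52, a mitochondrial ribosomal protein gene between these genes, had a log2 fold change of -0.28 (SE 0.04), and LRP10, on the other side of MMP14, had -0.07 (SE 0.04, adjusted p = 0.223). Of 32 tested genes that start within 1 Mb of MMP14, 6 were higher and 10 lower, 2 of them at least 2-fold, and their median log2 fold change was 0.01. Over all tested genes, 19.2% were higher and 21.0% lower. The second at least 2-fold difference was DHRS2, a dehydrogenase gene, at 1.53 (SE 0.34).

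Over the whole table the genotypes differed widely but mostly by little. In MMP14-KO spheroids 3269 genes were higher (19.2% of those tested) and 3582 lower (21.0%), 40.2% in all, and 47.7% of the calls were higher. With scaling by library size alone, 61.3% of all calls were higher. The rule for constant genes used this contrast, so nothing is read from their share of it. The median size of the called log2 fold changes was 0.26, and 5580 of the 6851 calls were under 1.5-fold. At 2-fold or more, 471 genes were higher (2.77%) and 98 lower (0.575%). Of these 569 genes, 560 had the same sign in all 3 conditions and 144 were constant. The same sign was held by 51.5% of all tested genes and by 6111 of the 6851 called genes. Genes chosen by their average over the same libraries tend to keep 1 sign, so nothing is read from the counts with 1 sign in this paragraph. The direct test of a change of the genotype difference with condition called 30 of the 569 genes (5.27%), against 1206 of all genes tested (7.08%). The number over all genes was 2448 without the filter on low counts and 2017 by DESeq2. Single libraries moved that number by over 1.5 times. It was 571 without MMP14-KO droplet replicate 1, 385 without MMP14-KO droplet replicate 3 and 779 without MMP14-KO 24 h replicate 2. It was 275 without Wildtype droplet replicate 1, 416 without Wildtype droplet replicate 2, 1910 without Wildtype 24 h replicate 1, 746 without Wildtype 24 h replicate 2 and 699 without Wildtype 24 h replicate 3. Between 24 h and 48 h alone, edgeR's test called 0 genes, with 1008 at an unadjusted p under 0.05, and DESeq2 called 13. Lying outside the 1.5-fold range alone does not show a change with condition. The median level in the higher genotype was 3.29 CPM for constant genes and 0.849 CPM for the other at least 2-fold genes. Among the 96 such genes with a mean of 5 CPM or more in the higher genotype, 94 had 1 sign and 51 were constant, 46 higher and 5 lower.

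**Figure D2:**
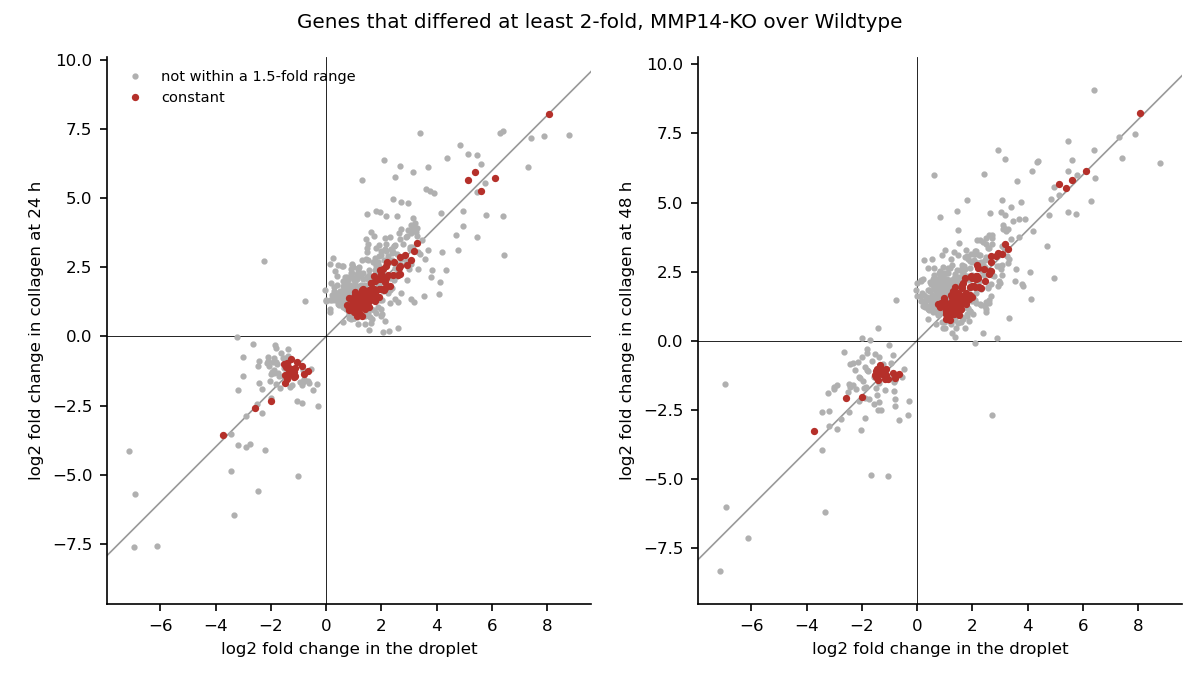
Log2 fold change of MMP14-KO over Wildtype in collagen at 24 h (left) and 48 h (right) against that in droplets, for the 569 genes that differed at least 2-fold over all conditions. Red points are the 144 constant genes, which the rule places near the diagonal line of equal size; grey points are the others, most of which lie in the same quadrant.

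Because the 3 conditions share no library, genes called in 1 condition were looked up in separate fits of the other 2. Droplets fitted alone gave 8.31% of tested genes higher and 8.93% lower. Of 320 genes (1.88% of those tested) that were at least 2-fold higher in MMP14-KO droplets, 312 had the same sign at 24 h and 256 passed there (80%), beside 14.4% of all tested genes called higher at 24 h. At 48 h 313 had the same sign and 238 passed (74.4%), beside 11.6% of all genes. Both collagen fits called 225 of the 320 (70.3%). The median log2 fold change of the 320 was 1.93 at 24 h and 1.99 at 48 h, beside 1.88 in the droplets that chose them. Of 135 genes at least 2-fold lower in MMP14-KO droplets (0.793%), 115 had the same sign at 24 h and 67 passed (49.6%, beside 15.8% of all genes), 113 and 63 did so at 48 h (46.7%, beside 10.9%), and both fits called 54 (40%). The median log2 fold change of the 135 was -0.65 at 24 h and -0.58 at 48 h, beside -1.47 in droplets. Whether rises and falls differ in this was not tested. In the other direction, 282 of 541 genes at least 2-fold higher at 24 h (3.18%) and 289 of 548 at 48 h (3.22%) passed as higher in droplets, as did 46 of 97 lower at 24 h (0.57%) and 45 of 99 at 48 h (0.581%) as lower.

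The 144 constant genes were 119 protein-coding genes, 18 long noncoding genes, 2 pseudogenes and 5 that GENCODE 29 does not hold. The genotype difference chose them, so their values are a description. In the higher genotype 51 averaged 5 CPM or more, 65 between 1 and 5 CPM and 28 under 1 CPM. The median log2 fold change was 1.44 among the 122 rises and -1.23 among the 22 falls. In 85 of the 144 the 9 MMP14-KO and 9 Wildtype libraries did not overlap, as they did not in 3.03% of all tested genes. Of the 144 genes, 41 share exon sequence with a gene on the opposite strand, and reads of the partners cannot be told apart where the counting does not use strand.

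**Figure D3:**
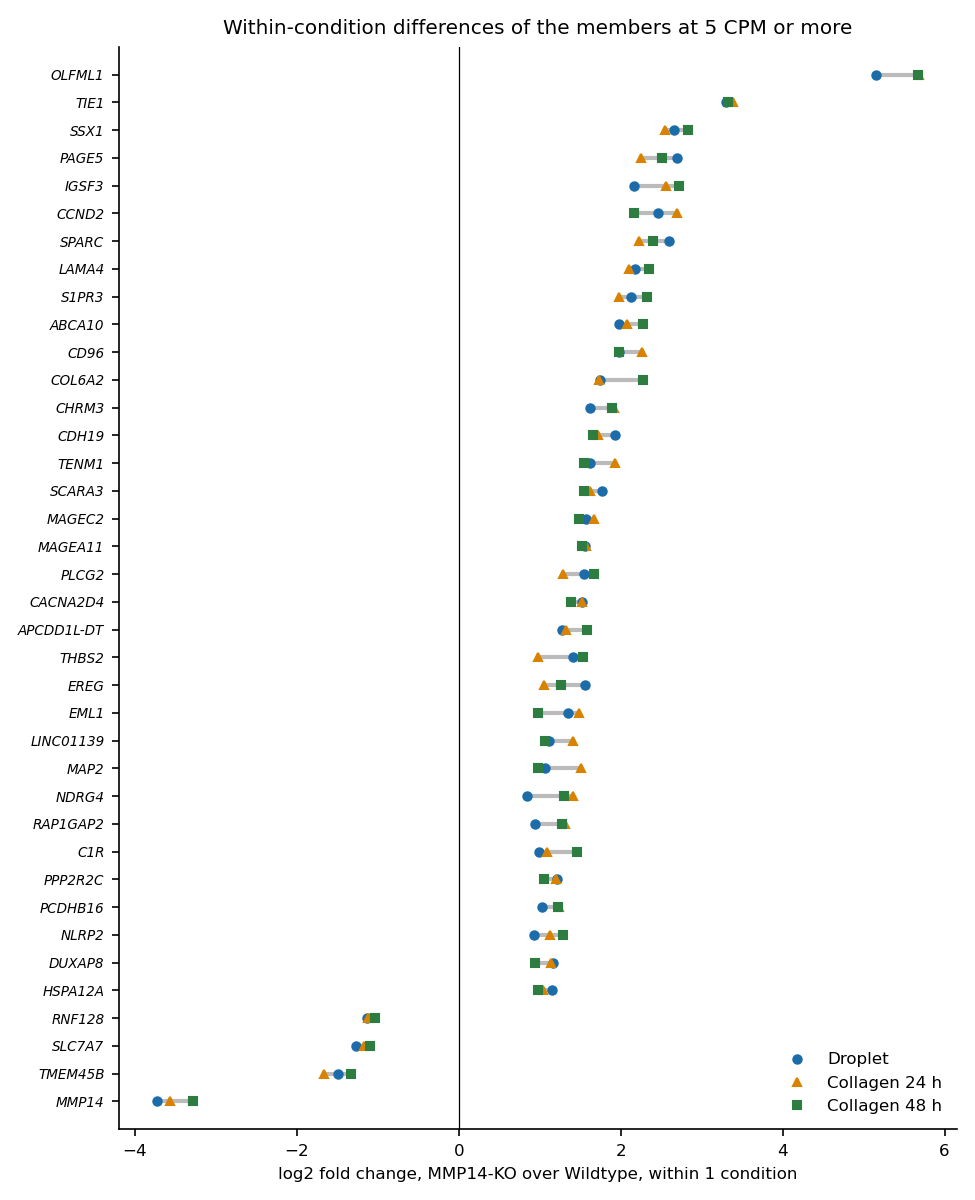
Log2 fold change of MMP14-KO over Wildtype within each condition for 38 constant genes with a symbol, a mean of 5 CPM or more in the higher genotype and no overlap between the 9 MMP14-KO and 9 Wildtype libraries. Grey bars join the lowest and the highest of the 3 values, which the rule keeps within log2(1.5); 34 genes lie to the right of 0 and 4 to the left.

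Several matrix genes were among the constant rises. COL6A2, a chain of type VI collagen, was at 146 to 227 CPM in MMP14-KO libraries with a median of 183 CPM, and at 28.5 to 66.3 CPM in Wildtype libraries with a median of 54.5 CPM. The ranges were far apart, and the log2 fold changes were 1.74, 1.73 and 2.27 in droplets, at 24 h and at 48 h (average 1.90, SE 0.08, adjusted p = 2.01e-12). Its difference lay within the 1.5-fold range, yet the direct test found a change with condition (adjusted p = 0.00601). COL6A1, which encodes the partner chain, was less different and less constant, at 396 to 794 CPM in MMP14-KO and 163 to 623 CPM in Wildtype libraries, with log2 fold changes of 0.44, 0.83 and 1.16. The ranges of COL6A1 overlapped, and its difference also changed with condition (adjusted p = 0.0124).

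LAMA4, a laminin chain of vascular and other basement membranes, was at 9.21 to 22.4 CPM with a median of 11.7 CPM in MMP14-KO libraries and at 2.13 to 5.00 CPM with a median of 2.54 CPM in Wildtype libraries. The genotypes did not overlap although both were highest in droplets, and the average log2 fold change was 2.21 (SE 0.08, adjusted p = 2.22e-15). SPARC, a collagen-binding matricellular protein gene, was at 4.34 to 7.96 CPM with a median of 5.28 CPM in MMP14-KO libraries and at 0.571 to 1.51 CPM with a median of 1.10 CPM in Wildtype libraries, again without overlap (log2 fold change 2.40, SE 0.17, adjusted p = 3.92e-10). LAMA4 and SPARC each share exon sequence with a gene on the opposite strand. THBS2, another matricellular gene, had a log2 fold change of 1.29 (SE 0.11). Of 30 tested matrix glycoprotein, proteoglycan and laminin genes, 9 were higher and 7 lower, with a median log2 fold change of 0.05 beside 0.00 over all tested genes. Of all tested genes 19.2% were higher and 21.0% lower. Of 25 tested collagen chains, 10 were higher and 3 lower, with a median of 0.14, and COL6A2 alone of them was constant. The type I collagen gene COL1A2 was at 0.141 to 0.991 CPM in MMP14-KO and 2.54 to 8.09 CPM in Wildtype libraries. It fell by 3.32 on the log2 scale (SE 0.19), but its differences of -2.89, -4.01 and -3.21 lay outside the range.

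Among the integrin genes, ITGA1 and ITGB3 differed by nearly the same amount in every condition, with an average under 2-fold. ITGA1 encodes the collagen-binding subunit that pairs with integrin beta 1 and had log2 fold changes of 0.86, 0.77 and 0.82 (average 0.82, SE 0.12, adjusted p = 4.04e-05). ITGB3 encodes the subunit that pairs with integrin alpha V and had 1.03, 0.91 and 1.01 (average 0.99, SE 0.05, adjusted p = 2.01e-12). The MMP14-KO and Wildtype ranges overlapped for both genes over the 3 conditions. Of 20 tested integrin and collagen receptor genes, 6 were higher and 3 lower. Of 23 partners and regulators of MMP14, 3 were higher, 7 lower and none at least 2-fold. Beside the 19.2% higher and 21.0% lower of all tested genes, nothing is read from these counts. TIMP2, the inhibitor that bridges MMP14 and proMMP2, had log2 fold changes of -0.51, -0.30 and -0.35 (average -0.39, SE 0.04, adjusted p = 3.45e-08), and BSG, the matrix metalloproteinase inducer basigin, had -0.37, -0.36 and -0.27 (average -0.33, SE 0.03).

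Cadherin genes were among the widest differences. CDH10, a classical type II cadherin gene of the nervous system, had 304 reads in the 9 MMP14-KO libraries and 0 in the 9 Wildtype libraries. MMP14-KO libraries held 0.950 to 1.74 CPM, and against a floor of 3 reads over the Wildtype group the level was at least 105-fold higher. CDH7, another type II cadherin gene, had 668 reads in MMP14-KO and 13 in Wildtype libraries, at 1.41 to 4.38 CPM in MMP14-KO and 0.0307 to 0.178 CPM in Wildtype libraries (log2 fold change 5.59, SE 0.23). CDH19, which lies 751 kb from CDH7 on chromosome 18, was at 3.87 to 8.02 CPM in MMP14-KO and 1.41 to 2.85 CPM in Wildtype libraries (1.77, SE 0.11), and CDH18, on chromosome 5 as CDH10 is, was at 3.19 to 5.95 CPM in MMP14-KO and 0.753 to 2.35 CPM in Wildtype libraries (1.51, SE 0.11). None of these 4 cadherin genes overlapped between the genotypes. CDH2, which encodes N-cadherin, was low in all libraries and differed the other way, at 0.035 to 0.537 CPM in MMP14-KO and 0.226 to 1.06 CPM in Wildtype libraries (-1.15, SE 0.25, adjusted p = 0.000916). FAT3, an atypical cadherin gene, had -1.19 (SE 0.11). Of 30 tested cadherin, protocadherin and adhesion molecule genes, 14 were higher and 11 lower (19.2% and 21.0% over all genes). Their median log2 fold change of 0.12 did not keep 1 sign, with -0.08 in droplets, 0.20 at 24 h and 0.28 at 48 h. CDH10 and the noncoding gene LINC01606, which was at least 24.2-fold higher by the same floor, had no Wildtype read in any condition. Their constancy rests on the small count that the fit adds to both groups.

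IGSF3, an immunoglobulin-family membrane protein gene, was at 40.1 to 57.9 CPM with a median of 43.6 CPM in MMP14-KO libraries and at 5.75 to 13.1 CPM with a median of 7.35 CPM in Wildtype libraries. The genotypes did not overlap and both were highest in droplets. Its log2 fold changes of 2.17, 2.56 and 2.72 (average 2.46, SE 0.07, adjusted p = 2.67e-17) lay within the range but changed with condition (adjusted p = 0.0085). IGSF3 and COL6A2 were the 2 of 144 constant genes for which that test passed. OLFML1, which encodes a secreted olfactomedin-like protein, was at 6.37 to 10.2 CPM with a median of 7.78 CPM in MMP14-KO libraries and at 0.0782 to 0.414 CPM with a median of 0.167 CPM in Wildtype libraries. Its log2 fold change was 5.46 (SE 0.15), with 5.15, 5.68 and 5.68 in the conditions, on 1796 reads in MMP14-KO and 41 in Wildtype libraries.

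Of 34 tested receptor tyrosine kinase genes, 8 were higher and 9 lower (19.2% and 21.0% over all genes). Their median log2 fold change was 0.02, and 3 were constant. TIE1, an orphan receptor tyrosine kinase gene of the angiopoietin system, was at 9.36 to 12.6 CPM with a median of 11.5 CPM in MMP14-KO libraries and at 0.795 to 1.56 CPM with a median of 1.04 CPM in Wildtype libraries. Its differences of 3.29, 3.39 and 3.33 on the log2 scale were close to each other (average 3.34, SE 0.10, adjusted p = 6.34e-17). S1PR3, a sphingosine 1-phosphate receptor gene, had a log2 fold change of 2.14 (SE 0.13) and CHRM3, a muscarinic acetylcholine receptor gene, 1.80 (SE 0.10). FLT1, the VEGF receptor 1 gene, was near or below 1 CPM with nearly equal differences of 1.44, 1.38 and 1.41. MUSK, also a receptor tyrosine kinase gene, was constant in the other direction at -1.14 (SE 0.10), with overlapping ranges. NOTCH3, a Notch receptor gene, had 1.03 (SE 0.14).

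Of the 12 endothelial markers, 6 were tested, of which TIE1, FLT1, ENG and PECAM1 were higher and ESAM was lower. This stands beside 19.2% higher and 21.0% lower of all tested genes. The summed level of the tested 6 was 135 to 199 CPM in MMP14-KO and 143 to 215 CPM in Wildtype libraries. The defining markers CDH5, VWF, CLDN5 and EMCN stayed under 1 CPM in every library, with 7 reads for CDH5 in MMP14-KO and 3 in Wildtype libraries. ENG, a TGF-beta co-receptor, was at 6.32 to 8.92 CPM in MMP14-KO and 0.935 to 2.59 CPM in Wildtype libraries, but its differences of 2.57, 2.18 and 1.91 spread past the 1.5-fold range.

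CCND2, the cyclin D2 gene, was at 3.36 to 6.40 CPM in MMP14-KO and 0.564 to 1.21 CPM in Wildtype libraries (2.44, SE 0.12). An unnamed gene in the annotation starts beside it and can share its reads. EREG, the EGF receptor ligand epiregulin, was at 40.1 to 53.8 CPM with a median of 47.4 CPM in MMP14-KO libraries and at 13.5 to 25.3 CPM with a median of 18.3 CPM in Wildtype libraries, without overlap (1.29, SE 0.09). C1R and C1S, neighbouring genes of the serine proteases that start the classical complement pathway, had 1.17 (SE 0.11) and 1.41 (SE 0.14). C1R was at 40.6 to 73.8 CPM in MMP14-KO and 14.5 to 40.5 CPM in Wildtype libraries, with only a narrow gap between them. CLU, the secreted chaperone clusterin, had 1.49 (SE 0.05) with overlapping ranges of 43.8 to 132 CPM in MMP14-KO and 12.9 to 50.7 CPM in Wildtype libraries, since both genotypes changed with condition.

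Cancer-testis genes, which are normally restricted to the germline and are often expressed in tumours, made up the list with the largest median difference. Of 45 listed genes, 17 were tested, 13 were higher, 11 of them at least 2-fold, and none was lower. The list's median log2 fold change was 2.49, with 2.66 in droplets, 2.25 at 24 h and 2.52 at 48 h, beside 0.00 over all tested genes. The summed level of the 17 overlapped between the genotypes, at 359 to 476 CPM in MMP14-KO and 291 to 443 CPM in Wildtype libraries. The median therefore does not describe the total of the list. The other 28 listed genes did not pass the filter on low counts, which a gene can pass through 1 genotype alone, and earlier results of these data were known when the list was set. Constant were SSX1, PAGE5, MAGEC2, MAGEA11 and MAGEA3, all on chromosome X. Their promoters are shown because these are the constant genes of the list. They are the RefSeq sequences of GRCh38.p14 from 250 bases before to 50 bases after the gene start, 5′ to 3′ on the gene's strand, with CG dinucleotides in capitals: chrX:48255142-48255441 (plus) for SSX1, chrX:55220096-55220395 (plus) for PAGE5, chrX:142205241-142205540 (minus) for MAGEC2, chrX:149711810-149712109 (plus) for MAGEA11 and chrX:152698544-152698843 (plus) for MAGEA3.
SSX1: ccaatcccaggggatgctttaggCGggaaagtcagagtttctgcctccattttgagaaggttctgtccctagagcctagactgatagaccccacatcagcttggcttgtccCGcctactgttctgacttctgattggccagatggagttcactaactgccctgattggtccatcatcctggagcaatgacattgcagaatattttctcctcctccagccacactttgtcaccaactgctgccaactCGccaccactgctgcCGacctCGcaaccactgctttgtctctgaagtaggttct
PAGE5: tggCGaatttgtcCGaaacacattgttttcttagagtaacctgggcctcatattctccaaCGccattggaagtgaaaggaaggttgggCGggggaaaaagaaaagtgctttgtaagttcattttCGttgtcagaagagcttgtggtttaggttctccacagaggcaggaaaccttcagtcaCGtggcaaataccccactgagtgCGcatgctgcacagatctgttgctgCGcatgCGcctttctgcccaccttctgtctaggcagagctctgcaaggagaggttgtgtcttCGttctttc
MAGEC2: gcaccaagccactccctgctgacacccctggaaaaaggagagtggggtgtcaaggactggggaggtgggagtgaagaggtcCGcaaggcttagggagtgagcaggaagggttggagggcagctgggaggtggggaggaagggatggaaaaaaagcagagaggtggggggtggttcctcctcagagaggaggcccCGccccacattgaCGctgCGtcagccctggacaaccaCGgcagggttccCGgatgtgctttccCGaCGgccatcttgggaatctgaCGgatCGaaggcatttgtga
MAGEA11: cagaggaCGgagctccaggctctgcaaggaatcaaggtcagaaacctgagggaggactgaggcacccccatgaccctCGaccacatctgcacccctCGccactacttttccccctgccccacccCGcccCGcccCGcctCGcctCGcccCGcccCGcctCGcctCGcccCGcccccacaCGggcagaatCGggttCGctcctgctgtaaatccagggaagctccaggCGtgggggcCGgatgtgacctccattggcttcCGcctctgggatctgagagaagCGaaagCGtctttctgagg
MAGEA3: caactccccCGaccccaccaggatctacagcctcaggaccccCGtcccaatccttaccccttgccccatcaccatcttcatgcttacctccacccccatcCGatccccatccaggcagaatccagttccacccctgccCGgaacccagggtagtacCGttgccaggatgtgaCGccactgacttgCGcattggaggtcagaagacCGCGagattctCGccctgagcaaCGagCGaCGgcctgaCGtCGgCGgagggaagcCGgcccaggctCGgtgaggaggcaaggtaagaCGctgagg
The motif counted was CG, which reads the same on both strands. It occurs 5 times in the SSX1 window, 10 times in PAGE5 and MAGEC2, 21 times in MAGEA11 and 19 times in MAGEA3. Of 35116 promoters of the same length, 96.0% hold at least 1 CG, and the median is 14. GENCODE 29 starts the MAGEA11 gene upstream of this window, at 149688228.

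PAGE5, a GAGE-family antigen gene, was at 20.3 to 31.8 CPM with a median of 24.8 CPM in MMP14-KO libraries and at 4.30 to 5.04 CPM with a median of 4.64 CPM in Wildtype libraries. Its log2 fold change was 2.49 (SE 0.06, adjusted p = 1.12e-17). SSX1, an antigen gene of the SSX family, was at 5.32 to 6.15 CPM with a median of 5.50 CPM in MMP14-KO and 0.543 to 1.38 CPM with a median of 0.782 CPM in Wildtype libraries (2.67, SE 0.14). MAGEC2, a MAGE antigen gene, was at 6.98 to 11.0 CPM in MMP14-KO and 2.36 to 4.11 CPM in Wildtype libraries (1.58, SE 0.08). The genotypes overlapped in none of these 3 genes. MAGEA11, another MAGE antigen gene, had nearly equal differences of 1.56, 1.57 and 1.52 (average 1.55, SE 0.10). MAGEA3 had 2.85, 2.94 and 3.05 (average 2.94, SE 0.13), while its near-identical copy MAGEA6 had 3.59, 2.80 and 2.60 and changed with condition (adjusted p = 0.00654). The counting can split reads between these copies, so the values of each are uncertain. Of 139 constant genes with a place in the annotation, 14 were on chromosome X (10.1%), beside 3.39% of the tested genes with a place, and 12 of the 14 were higher.

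Other constant genes lay close together. There were 25 pairs of constant genes whose starts were within 1 Mb of each other, made of 38 genes, and 23 of the pairs differed in the same direction. Since 122 of the 144 genes were higher, and some pairs, such as CHRM3 with CHRM3-AS2, can share reads, nothing is read from that count. On chromosome 17 the lipid transporter-family genes ABCA9, ABCA6 and ABCA10 follow each other, with log2 fold changes of 1.19 (SE 0.44), 1.71 (SE 0.13) and 2.09 (SE 0.16). ABCA9 was below 1 CPM in every library, and its call was lost under 13 of the alternatives tried, with adjusted p of 0.0503 to 0.088. The pair of opposite sign nearest to each other was GDF5, a bone morphogenetic protein-family ligand gene at -2.12 (SE 0.24), and the pseudogene FER1L4, which was at 2.62 to 7.37 CPM in MMP14-KO and 0.892 to 3.09 CPM in Wildtype libraries. GDF5 overlaps an antisense gene.

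Among the constant falls, RNF128, an E3 ubiquitin ligase gene, was at 5.59 to 7.55 CPM with a median of 6.98 CPM in MMP14-KO libraries and at 11.7 to 17.1 CPM with a median of 14.3 CPM in Wildtype libraries. The genotypes did not overlap, and the 3 differences of -1.13, -1.12 and -1.04 were nearly equal (average -1.10, SE 0.08, adjusted p = 3.52e-10). TMEM45B, a transmembrane protein gene, was at 1.09 to 2.68 CPM in MMP14-KO and 3.61 to 7.18 CPM in Wildtype libraries (-1.50, SE 0.14). RNASE1, a secreted ribonuclease gene, was at 0.077 to 0.350 CPM in MMP14-KO and 0.432 to 2.20 CPM in Wildtype libraries (-2.44, SE 0.23). With MMP14 and SLC7A7, RNF128 and TMEM45B were the 4 falls that had 5 CPM or more in Wildtype and no overlap.

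**Figure D4:**
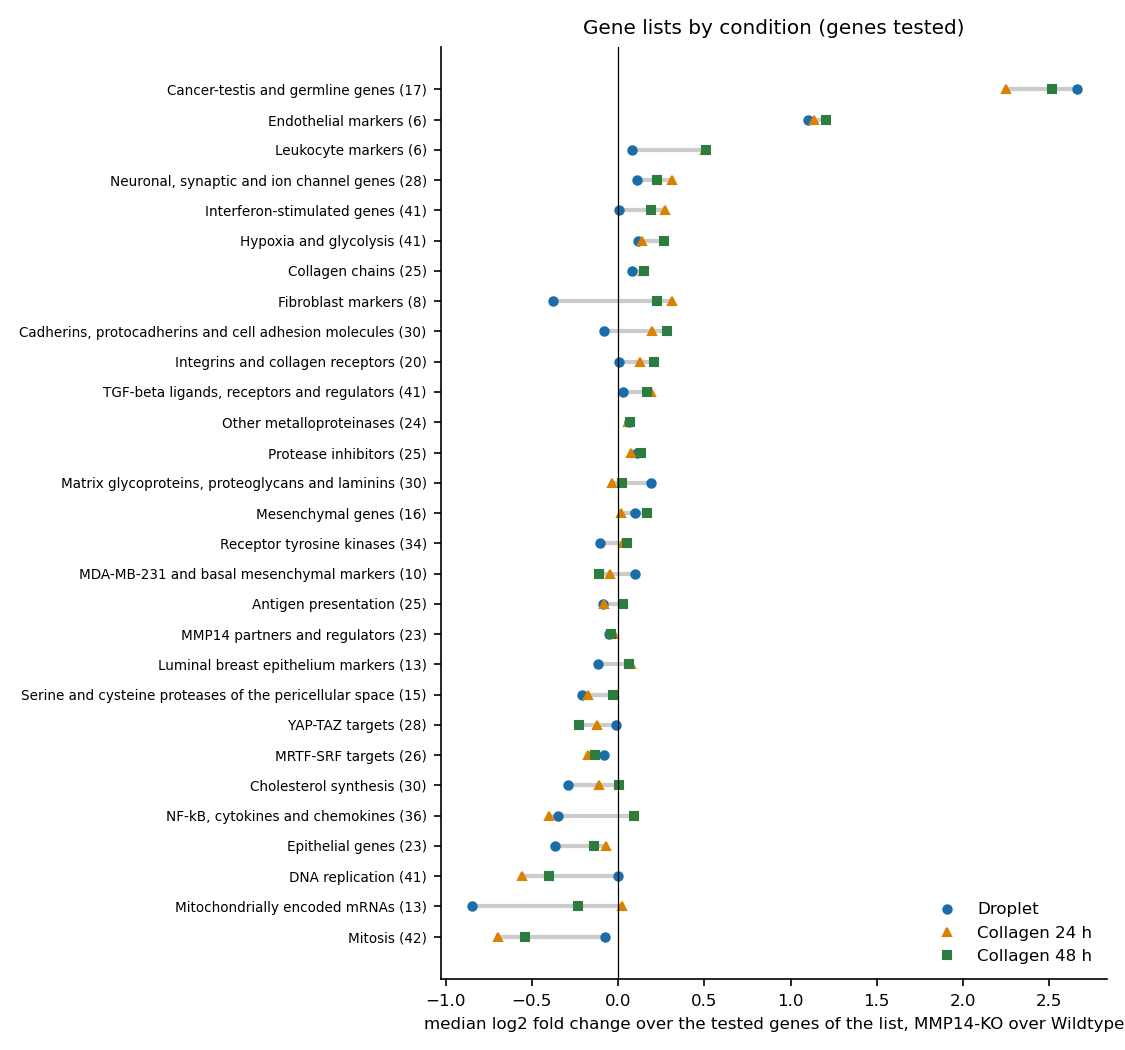
Median log2 fold change of MMP14-KO over Wildtype over the tested genes of each of 29 gene lists (number tested in brackets), separately in droplets, at 24 h and at 48 h. Cancer-testis genes and endothelial markers lie to the right in all 3 conditions, while replication, mitosis and mitochondrially encoded genes spread widely between conditions.

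Median differences were of more similar size across the conditions in some lists than in others. The counts of each list stand beside 19.2% higher and 21.0% lower of all tested genes. Of all 6851 called genes, 6111 had 1 sign in the 3 conditions and 589 were called in the test of a change with condition. Beside these, nothing is read from a list whose calls all had 1 sign. Of 41 hypoxia and glycolysis genes, 21 were higher and 2 lower, all 23 with 1 sign in the 3 conditions, and none was called in the test of a change with condition. The list's medians were 0.12, 0.14 and 0.27 on the log2 scale. NDRG1, a hypoxia-induced gene, was at 658 to 1325 CPM in MMP14-KO and 264 to 777 CPM in Wildtype libraries, with differences of 0.82, 1.18 and 1.45 that lay just outside the range. DDIT4, a stress-induced inhibitor of mTORC1, was at 186 to 259 CPM in MMP14-KO and 107 to 169.6 CPM in Wildtype libraries without overlap (0.59, SE 0.08), and STC2, a secreted glycoprotein gene, was constant at 1.07 (SE 0.17). Of 26 genes regulated by MRTF and SRF, the actin-responsive transcription factors, 15 were lower and 3 higher, all with 1 sign, and the medians were -0.08, -0.18 and -0.14. MYL9, a myosin light chain gene, had -0.50 (SE 0.05) and ACTA2, smooth muscle actin, had -0.71 (SE 0.13), with overlapping ranges for both. Of 41 genes of TGF-beta ligands, receptors and regulators, 18 were higher and 4 lower. Of 28 YAP-TAZ targets, 12 were lower and 2 higher, and the test of a change with condition called 4 of these 14.

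By contrast, 39 of 41 DNA replication genes were lower over all conditions, but their medians were 0.00 in droplets, -0.56 at 24 h and -0.40 at 48 h, and 17 of the 39 were called in the test of a change with condition. Of 42 mitosis genes 39 were lower, with medians of -0.08, -0.70 and -0.54. In the mitosis list 29 of the 39 had 1 sign in all conditions and 2 were called in that test, beside 589 of all 6851 called genes. The unequal medians of the mitosis list alone therefore do not show a change with condition. The most unequal single genes at 5 CPM or more were NDRG2, ALPP, LTB and AKR1C1. NDRG2 was at 4.17 to 8.02 CPM in MMP14-KO and 0.828 to 2.66 CPM in Wildtype droplets, but at 3.67 to 5.54 CPM in MMP14-KO and 0.117 to 0.376 CPM in Wildtype spheroids in collagen, so that its differences were 1.80, 4.54 and 5.09 (change with condition, adjusted p = 0.00601). ALPP, placental alkaline phosphatase, was at 3.90 to 19.0 CPM in MMP14-KO and 4.40 to 77.6 CPM in Wildtype libraries, with differences of -0.23 at 24 h and 0.13 at 48 h and a larger fall in droplets (change with condition, adjusted p = 0.0304). At the edge of the rule, NDRG4 with a range of 0.57 and MUSK with 0.57 on the log2 scale were inside, and TRPV4 with 0.62 and NDRG1 with 0.63 were outside.

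Small differences of 1 direction also ran along parts of chromosomes. The 12549 protein-coding genes with 1 CPM or more were taken in order along each chromosome in 492 full windows of 25 genes, with the genes left over at chromosome ends in no window, and a window was picked when its median log2 fold change was at most -0.15, or at least 0.15, in every condition. This rule was set after the values were seen, so what follows is a description. It picked 15 lower windows and 1 higher window, with 400 genes in all. On chromosome 6 the lower windows covered 291630 to 18468874, 33204642 to 36687339 and 41789896 to 73523797, and on chromosome 11 they covered 104942866 to 119108331 and 124739846 to 129279324. The others were on chromosome 14 at 102777476 to 105181323 and on chromosome 19 at 281040 to 1228435, and the higher window was on chromosome 15 at 69414246 to 74212267. MMP14 lies in none of them. The windows between the picked ones on chromosome 6 also had medians below 0 over all conditions, from -0.18 to -0.08. The one between those of chromosome 11 had -0.19. On chromosome 15 the full windows from 57591941 to 100603230 all had medians above 0. The breaks between the spans named here thus rest on the limit. With windows of 50 genes the same limit picked 8 of 240 windows, all lower, on chromosomes 6, 11 and 19. The 50-gene window over the picked part of chromosome 14 missed the limit in droplets, with -0.13, -0.19 and -0.19 in droplets, at 24 h and at 48 h. That of chromosome 15 missed it at 48 h, with 0.15, 0.18 and 0.14. Whether these 2 parts are picked thus rests on the window size and the limit, though both kept their direction.

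The 225 genes of the chromosome 6 windows had a median log2 fold change of -0.25, a fold of 0.838, with -0.21 in droplets, -0.28 at 24 h and -0.26 at 48 h. Of these genes, 193 were below 0 and 165 were called lower (73.3%), beside 26.5% of the 12549. The 100 genes on chromosome 11 had -0.26, with -0.22, -0.24 and -0.27, and 69 were called lower (69%). Set against the mean of the Wildtype libraries of its condition, each of the 9 MMP14-KO libraries had a median over the chromosome 6 genes between -0.29 and -0.21, while Wildtype libraries lay between -0.01 and 0.02. These same libraries picked the windows, and the Wildtype libraries are set against their own mean. Neither the shares called lower nor the separation of the libraries is therefore a test. For the 25 genes on chromosome 19 the MMP14-KO libraries lay between -0.37 and -0.13 and the Wildtype libraries between -0.06 and 0.06. For the 25 on chromosome 15 they lay between 0.13 and 0.26 in MMP14-KO and between -0.04 and 0.04 in Wildtype libraries. The 12147 genes that start outside the spans of these windows had medians between -0.02 and 0.01 in the MMP14-KO libraries and between -0.01 and 0.01 in the Wildtype libraries. Of the 400 genes, 3 were among the constant at least 2-fold differences. Gene copy number was not measured in these libraries and its part was not tested.

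**Figure D5:**
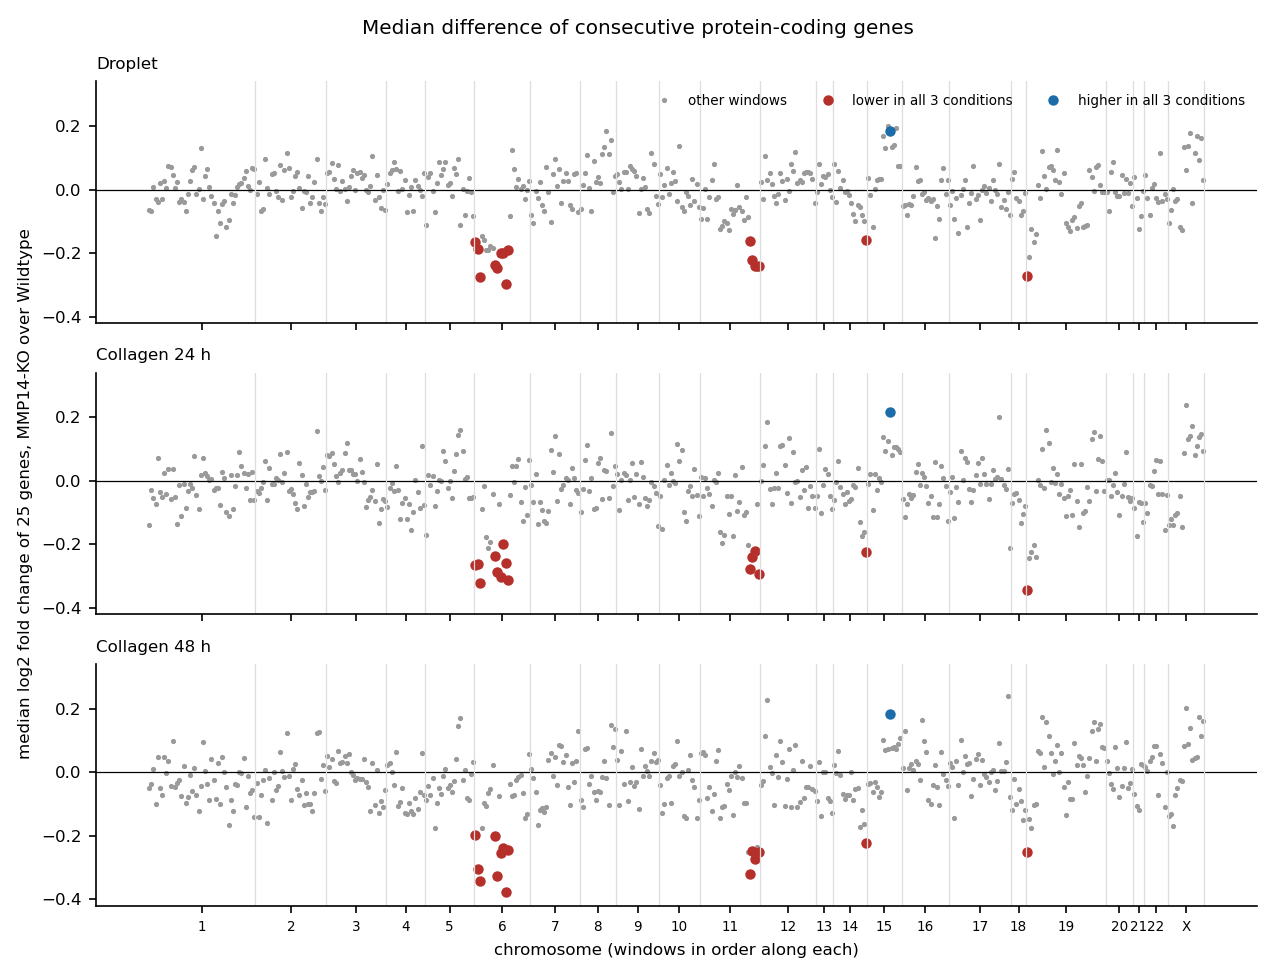
Median log2 fold change of MMP14-KO over Wildtype in 492 windows of 25 consecutive protein-coding genes, in order along the chromosomes, in droplets (top), at 24 h (middle) and at 48 h (bottom). Red points are the 15 windows at or below -0.15 and the blue point the 1 window at or above 0.15 in all 3 conditions; the red points stand on chromosomes 6, 11, 14 and 19.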

How the data were processed

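RNA was sequenced as polyA libraries with 151 bp read pairs, per the labels' protocols. Per the submitters' processing notes, the tools were cutadapt 2.3, FastQC 0.11.8, STAR 2.7.8a, RSEM 1.3.3, MultiQC 1.7 and DESeq2 1.42.0, with GRCh38. For the annotation release and the strand setting, the sources used here give nothing. The authors deposited expected counts per gene, and every value was a whole number, so that none was rounded. Of 62714 rows, 4 reporter rows with 0 reads were left out. Coordinates and overlaps are from GENCODE 29 (58274 genes matched).

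After filterByExpr (6 groups, minimum count 10), genes were scaled by TMM and fitted with edgeR 4.0.16 (limma 3.58.1, R 4.3.3). The genotype difference was tested by robust quasi-likelihood in an additive model with condition (14 residual degrees of freedom), and its change with condition in a model with 1 coefficient per group. P-values were adjusted over all 17030 genes (threshold 0.05). The SE is the log2 fold change divided by the square root of F. Library shares were tested by exact permutation within conditions (8000 arrangements). The fits were tried on simulated counts with 1 dispersion for all genes and changes placed only in genes at 5 CPM or more. Changes in genes at lower levels were not simulated. Alternatives were other scalings, no filter, DESeq2, averaged coefficients, a replicate block, and leaving out each library or condition. Intervals and floors cover counting error only.

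Genes named are MMP14, and the 12 largest rises and falls among constant genes with 5 CPM or more, no overlap and a symbol. Under the same limits the 6 with the highest CPM in each direction were added. Each list gave up to 4 of those past the test with 1 CPM or more, by size. Of the tested genes within 1 Mb of MMP14, only a hand-picked selection was named. Genes on in 1 genotype only and the widest and borderline ranges were named too. Not all are printed. Several members (the smaller cadherin, ABCA, receptor and secreted-protein genes, LINC01606 and FER1L4) were named after their values were seen. The members and the 29 lists (783 genes) were chosen with earlier results of these data known. Some genes are not reported here.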

Additional observations from a re-analysis of the deposited data

Results flagged for a closer look

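For 6 named genes the genotype difference changed with condition in edgeR's quasi-likelihood test with Benjamini-Hochberg adjustment over all tested genes, which is the reason they are listed. COL6A2 (adjusted p = 0.00601) and IGSF3 (adjusted p = 0.0085) were both within the 1.5-fold range and higher in MMP14-KO spheroids in every condition, and both differed most at 48 h. COL6A1 (adjusted p = 0.0124) was likewise most different at 48 h. MAGEA6 (adjusted p = 0.00654) was most different in droplets, and its reads can be split with near-identical copies. NDRG2 (adjusted p = 0.00601) kept its direction, with a larger difference in collagen than in droplets. ALPP (adjusted p = 0.0304) was lower in MMP14-KO droplets, with differences near 0 in collagen.

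Of the 2 genes at 1 CPM or more in every MMP14-KO library and under 0.1 CPM in every Wildtype library, neither met the constant rule. CECR2, a chromatin remodelling gene, had 611 reads in MMP14-KO and 3 in Wildtype libraries, a ratio per depth of 211 (95% exact interval 72.0 to 1028). ENSG00000275191 had 663 reads in MMP14-KO and 5 in Wildtype libraries, a ratio of 138 (58.7 to 425).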

How the results depend on the processing

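No value of the 159 named genes turned its direction where the main fit or the alternative called the gene. Of 4290 values, 71 lost the call and 1 gained it. The other 4218 kept direction and call, or were called in neither fit, where a change of sign was not counted. Among named constant genes the lost calls were 13, all of ABCA9. With library size alone as scaling, 61.3% of calls were higher and the window medians were -0.21 on chromosome 6, -0.21 on chromosome 11 and -0.16 on chromosome 14. Without a filter on low counts, 864 genes were at least 2-fold higher and 173 lower, 2448 changed with condition, and both collagen fits called 57.7% of the droplet rises and 27.3% of the droplet falls. Without a fold limit that share was 42.6% for rises. DESeq2 called 2017 genes for a change with condition.

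Without droplets, 346 genes were constant and higher, 50 were constant and lower, 0 changed with condition, and the chromosome 6 median was -0.27. Without 24 h there were 202 and 46 constant genes, 2042 genes higher and 2046 lower, a chromosome 6 median of -0.24 and a mitochondrial difference of -0.682 percentage points (exact permutation p = 0.04). Without 48 h, 212 and 46 were constant. The numbers higher and lower were 44 and 6 within the narrower range tried, 251 and 45 within a 2-fold range and 341 and 147 at an average fold of 1.5, and 14 were lower without genes overlapping on the opposite strand. The causes were not tested, and fewer conditions make the range easier to meet by construction.

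Leaving out 1 library at a time gave 115 to 139 constant rises and 18 to 26 constant falls, with 110 to 130 of the 144 genes kept, and 275 to 1910 genes that changed with condition. The share of droplet calls found in both collagen fits was 61.5% to 74.9% for rises and 28.4% to 46.2% for falls. The mitochondrial difference was -0.462 to -0.277, and passed without Wildtype 48 h replicate 3 (exact permutation p = 0.0473).

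The replicate numbers were not taken as pairs: over 500 genes the deviations of 9 same-numbered pairs correlated at -0.05 to 0.40, 7 of them over 0.1, and the labels name no shared source. As a hint from the data, 16 of 18 libraries were closest to their own number among the 3 libraries of the other genotype in the same condition. Libraries of other conditions were left out of this comparison. With a replicate block the constant genes numbered 122 and 22 and 1880 genes changed with condition. Same-numbered libraries of different conditions, which are not among the 9 pairs, correlated at -0.288 to 0.271. A block shared over the conditions cannot take up a pairing that holds only within conditions. Whether such a pairing would change the constant genes was therefore not tested.

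Genes under 1 CPM rest on few reads, so their folds and their constancy are imprecise.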
